A study of Mus musculus with 24 samples.

Results

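The renal cortex of diabetic mice that drank the C5a receptor inhibitor PMX-53 was compared with that of non-diabetic mice that drank plain water, to show what still set the treated diabetic cortex apart from healthy cortex. The 2 groups, with 6 libraries each, make up 12 of the study's 24 libraries, and all genes that passed an expression filter entered the comparison, 15150 of 48526. The diabetic PMX-53 mice had 5 low doses of streptozotocin (55 mg/kg each, a toxin of the pancreatic beta cells) from the age of 6 weeks and 2 mg/kg PMX-53 in the water. The reference animals, called non-diabetic vehicle here, received 0.5 M sodium citrate in place of streptozotocin and water without inhibitor. A further group, non-diabetic PMX-53 (6 libraries), had citrate and the inhibitor and is set beside the others where it helps. All were C57BL/6 mice on chow, randomized to the inhibitor or water and followed for 24 weeks. The groups compared differ in both diabetes and PMX-53, so the 2 cannot be told apart in the main comparison. Untreated diabetic mice, the study's other group, were not compared, and their libraries entered only an alternative fit in which all 24 libraries share the estimate of the spread. The labels used here give neither the sex of the mice nor the time of day of collection.

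PMX-53 is a cyclic peptide that blocks C5aR1, the receptor through which the complement fragment C5a recruits and activates leukocytes. The cortex consists mostly of proximal tubules, which reabsorb glucose, amino acids and ions and run on fatty acid oxidation, with glomeruli, distal segments and vessels between them. In diabetes the tubule is flooded with filtered glucose, and the diabetic kidney is known for tubular growth, podocyte loss, matrix expansion and a shift in fuel use. In a bulk sample, fewer cells of a type and less RNA per cell cannot be told apart.

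The libraries held 10964992 to 18012225 counts in diabetic PMX-53 and 12461567 to 17810087 in non-diabetic vehicle mice, and the labels name each as a separate sample. The p-values measure the spread between these samples, part of which may be technical. Mitochondrially encoded genes took 25.8% ± 2.56 (SD, n = 6) of counts in diabetic PMX-53 and 22.6% ± 1.65 (SD, n = 6) in non-diabetic vehicle libraries (p = 0.0238 by an exact permutation test, adjusted p = 0.0714 over 6 properties). Most of this share was mitochondrial ribosomal RNA. Without ribosomal RNA it was 5.26% ± 0.856 and 4.66% ± 0.565 (exact p = 0.190, adjusted p = 0.286). The first principal component of log levels, with 35.8% of the variance, put all 6 diabetic PMX-53 libraries on one side and all 6 non-diabetic vehicle libraries on the other. The second, with 15.6%, set non-diabetic vehicle replicate 5 at 20.4, while the other 11 lay between -15.8 and 9.39. That library stood apart at several genes of fatty acid oxidation, so the counts of those lists are also given without it.

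The tissue label was checked against defining markers. The proximal tubule gene Lrp2, which encodes megalin, was at 4960.2 to 6005 CPM (median 5679) in diabetic PMX-53 and 6329 to 6806 CPM (median 6553) in non-diabetic vehicle libraries. Markers of skeletal muscle (8 genes) summed to at most 1.04 CPM in any of the 12 libraries, and the 8 of the adrenal cortex to at most 4.00. The adrenal enzymes Cyp11b1 and Cyp11b2 had 0 counts in all 12. The Y-linked gene Ddx3y was present in all 12 libraries, at 38.1 to 51.5 CPM (median 44.8) and 42.1 to 54.4 CPM (median 47.5). Nnt, whose level differs between C57BL/6 substrains, was at 111 to 123 CPM (median 115) and 103 to 115 CPM (median 109.7) (log2 fold change 0.10 ± 0.05, adjusted p = 0.178), so the groups overlapped at this gene. Of 5 tested candidate substrain genes 1 was higher and 1 lower, against 8.08% and 7.52% of all genes. At 1 of the 5 the higher group did not overlap the other. The part of substrain in these values was not tested.

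In all, 2364 of 15150 genes differed by the quasi-likelihood test of edgeR at an adjusted p below 0.05, which is 15.6% of those tested. The diabetic PMX-53 level was higher at 1224 genes (8.08%) and lower at 1140 (7.52%), and 209 genes differed at least 2-fold, 109 of them higher. Differences were mostly small, and 76 genes (46 higher) passed a test against a 1.5-fold threshold. The 6 libraries of one group lay entirely above or below the 6 of the other at 1151 genes (7.60%), 608 higher (4.01%) and 543 lower (3.58%). Without scaling beyond library totals 1562 genes were called and 62.6% of these were higher, against 51.8% in the main analysis. Values below are log2 fold changes ± standard error of diabetic PMX-53 over non-diabetic vehicle and normalized CPM, counts scaled to a common library size. The shares of 8.08% higher and 7.52% lower are the background of every list count that follows, and a list near them is not a result about that list. The plot of fold change against adjusted p shows where the named genes lie.

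**Figure D1:**
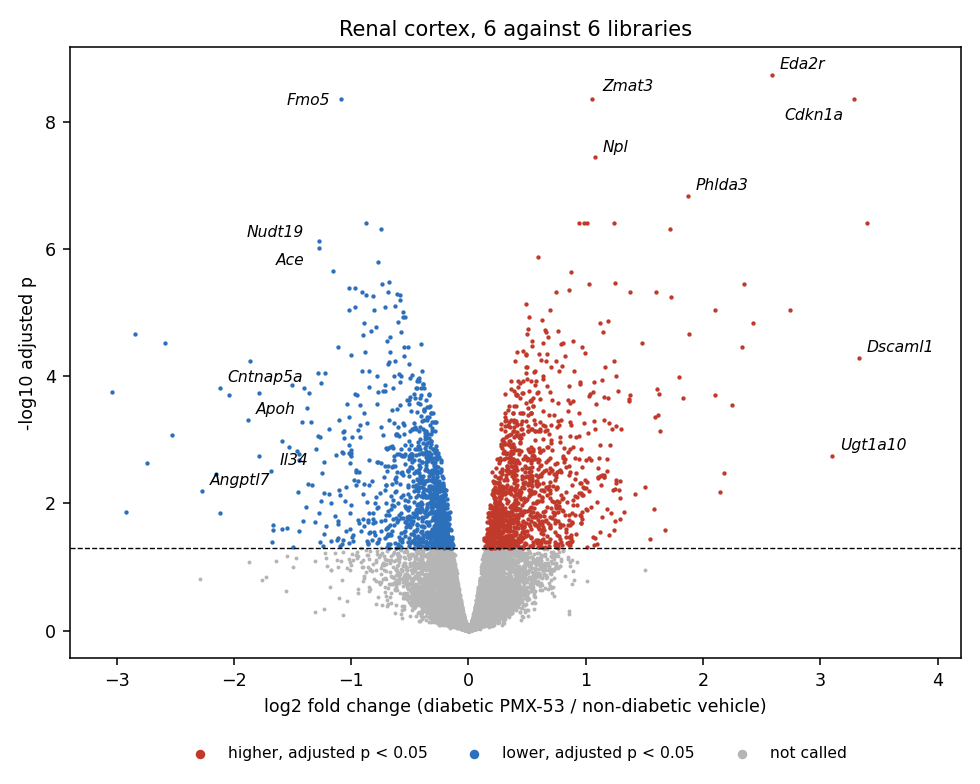
Each point is 1 of 15150 genes, with the log2 fold change of diabetic PMX-53 over non-diabetic vehicle cortex on the x axis and -log10 of the adjusted p on the y axis. Red marks the 1224 higher and blue the 1140 lower genes, and the dashed line is the threshold of 0.05. Eda2r, Cdkn1a, Zmat3 and Fmo5 reach the top of the plot.

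Target genes of p53 were higher as a group. This is the transcription factor that is stabilised by DNA damage and other stress and switches on genes of cell cycle arrest and apoptosis. Of 26 tested targets 19 were higher and 0 lower, against 8.08% higher among all genes. The median log2 fold change of the list was 0.71, against -0.003 over all genes tested. The groups did not overlap at 15 of the 26 targets, against 4.01% of all genes not overlapping and higher. The count of higher targets lay between 17 and 20 when 1 library at a time was left out. The count of lower targets was then 0 to 1.

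Cdkn1a (ENSMUSG00000023067, chromosome 17, 29090976 to 29100727 on GRCm38), which encodes the cell cycle inhibitor p21, was at 27.8 to 37.7 CPM (median 32.97) in diabetic PMX-53 and 2.37 to 5.66 CPM (median 3.08) in non-diabetic vehicle libraries. All 6 libraries of the first group lay far above all 6 of the second, where replicate 1 was the highest. The means were 32.96 ± 3.36 and 3.32 ± 1.22 CPM (SD, n = 6 each), with a fitted fold difference of 9.78 (log2 fold change 3.29 ± 0.15, adjusted p = 4.38e-09). Eda2r (ENSMUSG00000034457, chromosome X, 97333840 to 97377216), which encodes an ectodysplasin receptor, had the smallest p in the comparison. It was at 5.43 to 6.49 CPM (median 6.22) and 0.861 to 1.28 CPM (median 0.944), with no overlap (2.59 ± 0.13, adjusted p = 1.87e-09).

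The other called targets followed the same direction, while some of the 7 that were not called had negative values, down to -0.47 ± 0.27. Zmat3, an RNA-binding zinc finger protein gene, was at 78.9 to 85.4 CPM (median 83.2) against 34.7 to 46.6 CPM (median 39.7), with log2 fold change 1.05 ± 0.06 and adjusted p = 4.38e-09. Ccng1, which encodes cyclin G1, was at 243 to 294 CPM (median 261) against 120.2 to 169.6 CPM (median 134), with log2 fold change 0.94 ± 0.07 and adjusted p = 3.90e-07. Phlda3, an inhibitor of Akt signalling, was at 7.41 to 8.43 CPM (median 8.06) against 1.63 to 2.85 CPM (median 2.11), with log2 fold change 1.87 ± 0.14 and adjusted p = 1.49e-07. None of these 3 genes overlapped between the groups. A further 4 targets were chosen after their values were seen. Psrc1, a spindle protein gene, differed by 2.74 ± 0.30 but averaged only 0.325 ± 0.166 CPM in the reference group, and the stress cytokine gene Gdf15 differed by 0.87 ± 0.15. Mdm2, whose product degrades p53, was higher by a smaller 0.35 ± 0.05 (adjusted p = 2.93e-04) and Bax, a pro-apoptotic gene, by 0.34 ± 0.08 (adjusted p = 0.00664). Non-diabetic PMX-53 libraries held Cdkn1a at 4.77 ± 2.11 and Eda2r at 1.04 ± 0.147 CPM (SD, n = 6), with adjusted p = 0.66 and 0.966 against the vehicle group by edgeR. The plot of p53 targets shows these values per library.

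**Figure D2:**
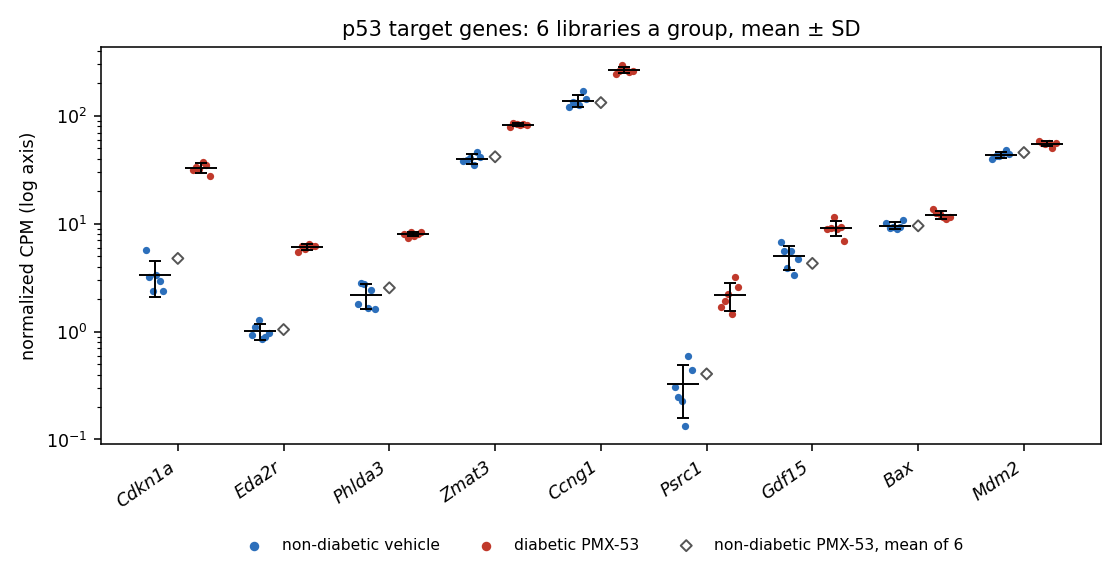
Normalized CPM (log axis) of 9 p53 target genes in each of 6 non-diabetic vehicle (blue) and 6 diabetic PMX-53 libraries (red), with mean ± SD in black and the mean of 6 non-diabetic PMX-53 libraries as open diamonds. The diamonds were scaled in a separate fit of 18 libraries. Every red group lies above the blue one, with a fitted fold difference of 9.78 for Cdkn1a, and the diamonds lie within or near the blue points.

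Because Cdkn1a had the largest fold change of the list, the promoters of its members were searched for 2 copies of the p53 core tetramer with 6 bases between them (CATGNNNNNNCATG, which reads the same on both strands). The letters occurred in 1 of 32 promoters of 23 listed genes, that of Cdkn1a, and in 0.712% of all 32851 promoters of the RefSeq table (GRCm38.p6, 250 bases before to 50 after the start). The match lies 48 to 35 bases before the start of that promoter, and some listed genes have more than 1 start. The 250 bases upstream (chr17:29090729-29090978, plus strand) read as follows, with the match in capitals.
Cdkn1a: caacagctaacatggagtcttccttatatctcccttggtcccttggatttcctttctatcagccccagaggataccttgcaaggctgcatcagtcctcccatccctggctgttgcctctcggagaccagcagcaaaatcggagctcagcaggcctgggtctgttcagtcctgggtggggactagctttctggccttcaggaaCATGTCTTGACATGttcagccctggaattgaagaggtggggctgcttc
The motif was chosen after the values were seen, and a match is a description of these letters.

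Beyond p53 targets, the largest rises among called genes whose average log2 CPM reached 1 were in genes of varied function. Dscaml1, an adhesion molecule gene of the immunoglobulin superfamily, was at 3.19 to 9.79 CPM (median 6.04) against 0.331 to 1.18 CPM (median 0.559), with log2 fold change 3.33 ± 0.36 and adjusted p = 5.19e-05. Every diabetic PMX-53 library lay above every reference library, although levels within the first group spread widely. Ugt1a10, a glucuronosyltransferase gene that shares exons with its cluster and is therefore uncertain, was at 1.98 to 10.2 CPM (median 2.90) against 0.0742 to 0.681 CPM (median 0.516), with log2 fold change 3.10 ± 0.53. Fam212b was higher by 2.35 ± 0.23 and Plcd4, a phospholipase C gene, by 1.72 ± 0.14. Aldh1b1, a mitochondrial aldehyde dehydrogenase gene, was higher by 1.61 ± 0.23 and Ltc4s, the leukotriene C4 synthase gene, by 1.60 ± 0.16. Ephx1, which encodes the microsomal epoxide hydrolase, was higher by 1.48 ± 0.15 and Bhmt, a betaine-dependent methyltransferase gene, by 1.38 ± 0.14. None of these 8 overlapped between groups. Among genes with the smallest p, Npl, the sialic acid lyase gene, was at 35.02 to 44.4 CPM (median 40.7) against 16.3 to 21.7 CPM (median 18.95), with log2 fold change 1.08 ± 0.07 and adjusted p = 3.66e-08. The membrane protein gene Tmem43 was at 22.8 to 28.98 CPM (median 26.2) against 11.7 to 15.2 CPM (median 12.9), with log2 fold change 0.99 ± 0.08 and adjusted p = 3.90e-07.

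By the same measure the largest falls included secreted, adhesion and lipid genes. Cntnap5a, a neurexin family gene, was at 1.31 to 3.03 CPM (median 1.85) against 6.13 to 14.98 CPM (median 8.08), with log2 fold change -2.12 ± 0.27 and adjusted p = 1.51e-04, with no overlap. Angptl7, an angiopoietin-like gene, was also lower at -2.28 ± 0.46, but its groups overlapped, with 0.505 to 2.83 CPM (median 1.97) against 2.58 to 18.04 CPM (median 7.81). Il34, a ligand of the macrophage receptor Csf1r, was at 4.83 to 10.3 CPM (median 6.77) against 11.8 to 31.2 CPM (median 24.9), with log2 fold change -1.68 ± 0.29 and adjusted p = 0.00307. The lower groups did not overlap for Slitrk6 (-1.59 ± 0.27), a transmembrane protein gene, or for the transcription factor gene Osr2 (-1.50 ± 0.21). They overlapped for the collagen gene Col19a1 (-1.79 ± 0.32), the annexin gene Anxa13 (-1.46 ± 0.26) and Mfsd2a (-1.59 ± 0.42), a transporter of lysophospholipids. Mfsd2a lost its call without diabetic PMX-53 replicate 1, 4 or 5, with an adjusted p of up to 0.0573. The smallest p among lower genes belonged to Fmo5 (ENSMUSG00000028088, chromosome 3, 97628804 to 97655282), a flavin monooxygenase gene, at 56.2 to 65.8 CPM (median 61.4) against 113 to 143 CPM (median 127), with log2 fold change -1.09 ± 0.06 and adjusted p = 4.38e-09. Azgp1, a zinc-binding glycoprotein gene, was lower at -0.87 ± 0.07, the sialyltransferase gene St8sia6 at -0.74 ± 0.06 and the carboxylesterase gene Ces1d at -0.77 ± 0.07. None of these 4 overlapped between groups. Apoh, the gene of a plasma glycoprotein made mainly in the liver, was at 1.39 to 4.09 CPM (median 2.86) against 5.30 to 13.9 CPM (median 11.1), with log2 fold change -1.88 ± 0.27 and adjusted p = 4.86e-04. It belongs to a list of liver markers, of which 2 of 6 were lower and 0 higher, and which summed to 25.9 to 42.1 CPM in diabetic PMX-53 and 49.9 to 93.3 CPM in non-diabetic vehicle libraries. The other was Serpina1a (-1.41 ± 0.35), which has near-identical copies and is uncertain, and Alb, the albumin gene, was at 4.50 to 7.05 CPM (median 5.89) against 5.54 to 30.02 CPM (median 8.23). The part of RNA from other tissue in these values was not tested.

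Male-biased genes of the kidney, which depend on androgen and are expressed mostly in the proximal tubule, were lower as a group. Of 19 tested 15 were lower and 0 higher, against 7.52% lower among all genes, with a median log2 fold change of -0.97. The count was 9 when all 24 libraries shared the fit. Kap, the kidney androgen-regulated protein gene, was at 4159 to 6030.2 CPM (median 5212) in diabetic PMX-53 and 9004 to 11108 CPM (median 10002) in non-diabetic vehicle libraries. The groups did not overlap, with a fitted fold difference of 1.95 (-0.97 ± 0.10, adjusted p = 8.36e-06). Nudt19, a coenzyme A hydrolase gene, was at 192 to 307 CPM (median 222) against 471 to 634 CPM (median 586), with log2 fold change -1.28 ± 0.10 and adjusted p = 7.51e-07, also with no overlap. Cyp4b1, a cytochrome P450 gene, was lower at -0.97 ± 0.10, Acsm3, an acyl-CoA synthetase gene, at -1.19 ± 0.17 and Odc1, the first enzyme of polyamine synthesis and chosen after its values were seen, at -0.73 ± 0.12. Of 17 female-biased genes 1 was higher, Rtn4rl1 at 0.44 ± 0.08, and 3 were lower, Cyp2a4 at -0.95 ± 0.12, Ugt8a at -0.59 ± 0.09 and Acsm2 at -0.32 ± 0.10 (not called without non-diabetic vehicle replicate 1, 3, 4 or 6 or without diabetic PMX-53 replicate 2 or 5, adjusted p up to 0.0753). The median of that list was -0.32, so both lists had a negative median.

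Markers of the S3 segment, the last part of the proximal tubule, were lower in 7 of 9 cases and higher in 0, with a median of -0.81. The list shares Slc7a13, Slc22a7 and Cyp7b1 with the male-biased genes. Slc7a13, an S3 amino acid transporter gene on both lists, was at 224 to 376 CPM (median 304) against 540.5 to 697 CPM (median 596), with log2 fold change -1.02 ± 0.10 and adjusted p = 9.32e-06. Acy3, an aminoacylase gene, was at 419 to 569 CPM (median 507) against 737 to 1083 CPM (median 958), with log2 fold change -0.91 ± 0.09 and adjusted p = 4.72e-06. Atp11a, a phospholipid flippase gene, was lower at -0.79 ± 0.09 and Slc27a2, a fatty acid transport and acyl-CoA synthetase gene, at -0.56 ± 0.06. These 4 genes did not overlap between groups. The summed level of the S3 list was 4230 to 5210 CPM in diabetic PMX-53 and 6590 to 8260 CPM in non-diabetic vehicle libraries. In the earlier segments, S1 and S2, 2 of 10 markers were higher and 1 was lower, against 8.08% and 7.52% of all genes. They were the neutral amino acid transporter gene Slc6a19 (0.59 ± 0.10), the creatine synthesis gene Gatm (0.48 ± 0.11) and Lrp2 (-0.23 ± 0.07, not called without non-diabetic vehicle replicate 1, 3, 4 or 6 or without diabetic PMX-53 replicate 5, adjusted p up to 0.0692).

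Transporters of organic anions and cations, by which the proximal tubule secretes drugs and metabolites, were lower in 11 of 24 cases and higher in 1 (median -0.32). Slc22a22, a prostaglandin transporter gene, was at 39.03 to 56.9 CPM (median 46.98) against 74.7 to 83.8 CPM (median 79.4), with log2 fold change -0.71 ± 0.08 and adjusted p = 8.36e-06. The related genes Slc22a30 (-0.84 ± 0.09) and Slc22a28 (-0.71 ± 0.09) were lower by similar amounts. The cation transporter gene Slc22a2 differed by -0.39 ± 0.07 and the luminal cation exporter gene Slc47a1 had -0.33 ± 0.06. These 5 genes did not overlap between groups. Slc22a26 was lower by more, -1.54 ± 0.40, but its groups overlapped, and the call was lost without diabetic PMX-53 replicate 1, 2 or 5 (adjusted p up to 0.0535).

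Several genes of fatty acid oxidation, the main fuel pathway of the proximal tubule, were lower. In the list of mitochondrial beta-oxidation and carnitine 11 of 27 were lower and 0 higher, with a median of -0.11. Acadm, the medium-chain acyl-CoA dehydrogenase gene, was at 321 to 395 CPM (median 336) in diabetic PMX-53 and 416 to 595 CPM (median 431) in non-diabetic vehicle libraries (-0.41 ± 0.08, adjusted p = 0.00271). The groups did not overlap, and the highest reference value, 595, belonged to replicate 5. Acadl, for long-chain substrates, was lower at -0.37 ± 0.07 and Acads, for short chains, at -0.27 ± 0.06. Cpt2, the inner carnitine palmitoyltransferase gene, was lower at -0.32 ± 0.06 and Tmlhe, the first enzyme of carnitine synthesis, at -0.30 ± 0.07. Without non-diabetic vehicle replicate 5 the list had 10 lower and 1 higher. Without scaling beyond library totals 4 were lower.

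Targets of PPAR-alpha, the nuclear receptor that drives fatty acid use in fasting, were lower in 13 of 23 cases and higher in 0 (median -0.30). Ehhadh, an enzyme of peroxisomal beta-oxidation, was at 393 to 474 CPM (median 453) against 563 to 933 CPM (median 646), with log2 fold change -0.60 ± 0.10 and adjusted p = 6.28e-04. Slc25a42, a mitochondrial coenzyme A carrier gene, was lower at -0.71 ± 0.10 and Bdh1, a ketone body dehydrogenase gene, at -0.56 ± 0.10. None of these 3 overlapped between groups. Pdk4, whose product holds back pyruvate oxidation, was at 20.5 to 39.3 CPM (median 32.9) against 41.8 to 255 CPM (median 66.7), with log2 fold change -1.66 ± 0.43 and adjusted p = 0.0262. Its reference libraries were widely spread, with 255 CPM in replicate 5, and the call was lost without diabetic PMX-53 replicate 1, 2, 4 or 5 (adjusted p up to 0.0595) and when all 24 libraries shared the fit (0.0534). Without non-diabetic vehicle replicate 5 the list had 10 lower and 1 higher. It had 8 lower without diabetic PMX-53 replicate 2 or 5, and 7 when all 24 libraries shared the fit. The direct repeat that PPAR dimers bind (AGGNCANAGGNCA, both strands) occurred in 1 of 23 promoters of 19 listed genes, that of the fatty acid binding protein gene Fabp1, and in 0.381% of all promoters. Fabp1 was not among the 23 genes tested, so the match belongs to none of the genes called lower. The adipocyte list, which holds the tubular gene Pck1, summed to 617 to 1830 CPM in diabetic PMX-53 and 1320 to 2440 CPM in non-diabetic vehicle libraries, with 0 of 3 tested members called and Lep at 0 counts. Its part in these results was not tested.

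Few respiratory chain genes passed the test. Of 37 nuclear genes of complex I 1 was lower, Ndufa4 (-0.21 ± 0.05, adjusted p = 0.00882), and 0 were higher, and of 39 genes of complexes II to V 0 passed in either direction. Of 7 mitochondrially encoded protein genes tested 1 was higher, mt-Nd6, the one encoded on the opposite strand from the others. It was at 386 to 685 CPM (median 588) against 354 to 466 CPM (median 371), with log2 fold change 0.54 ± 0.11 and adjusted p = 0.00374, and the groups overlapped. The abundant mt-Co1 was at 10976 to 15265 CPM (median 12990.1) against 10744 to 12491 CPM (median 11533), with log2 fold change 0.16 ± 0.09 and adjusted p = 0.24. The counting rule for strand is not given in the sources used here, so a gene cannot be separated from one that overlaps it on the other strand. In the citric acid cycle list 2 of 24 were higher, the citrate synthase gene Cs (0.18 ± 0.05) and the regulatory kinase gene Pdk2 (0.31 ± 0.09), and 1 was lower, Pdk4, which is close to the shares over all genes. Cs was not called without non-diabetic vehicle replicate 3 or without diabetic PMX-53 replicate 3, adjusted p up to 0.0541. Pdk2 was not called without non-diabetic vehicle replicate 4, 5 or 6 or without diabetic PMX-53 replicate 3, 4 or 5, adjusted p up to 0.0759.

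Glycolysis genes were higher in 6 of 25 cases and lower in 2. Pkm, the pyruvate kinase gene, was at 128 to 162 CPM (median 152) against 85.97 to 121 CPM (median 104), with log2 fold change 0.52 ± 0.07 and adjusted p = 1.74e-04, with no overlap. The aldolase gene Aldoc (0.61 ± 0.12), the phosphofructokinase gene Pfkm (0.37 ± 0.07) and the enolase gene Eno1 (0.28 ± 0.06) were also higher. Ldhd, which oxidises D-lactate and is not a step of glycolysis itself, was lower at -0.70 ± 0.12. The other lower gene was Ldha, a lactate dehydrogenase gene named after inspection of the values (-0.16 ± 0.05, adjusted p = 0.0488). The count of lower genes was 1 to 2 when 1 library at a time was left out. In the list of gluconeogenesis, fructose and polyol genes 3 of 18 were higher and 1 lower. Fbp2, a fructose bisphosphatase gene, was at 12.03 to 15.7 CPM (median 13.6) against 7.79 to 9.79 CPM (median 9.003), with log2 fold change 0.63 ± 0.09 and adjusted p = 1.01e-04. The coactivator gene Ppargc1a was higher by 0.27 ± 0.06 and the mitochondrial enzyme gene Pck2 by 0.29 ± 0.08 (not called without non-diabetic vehicle replicate 5 or without diabetic PMX-53 replicate 4, 5 or 6, adjusted p up to 0.0608). The glycerate kinase gene Glyctk was lower at -0.28 ± 0.05. The plot of pathway lists sets the spread of these lists side by side.

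**Figure D3:**
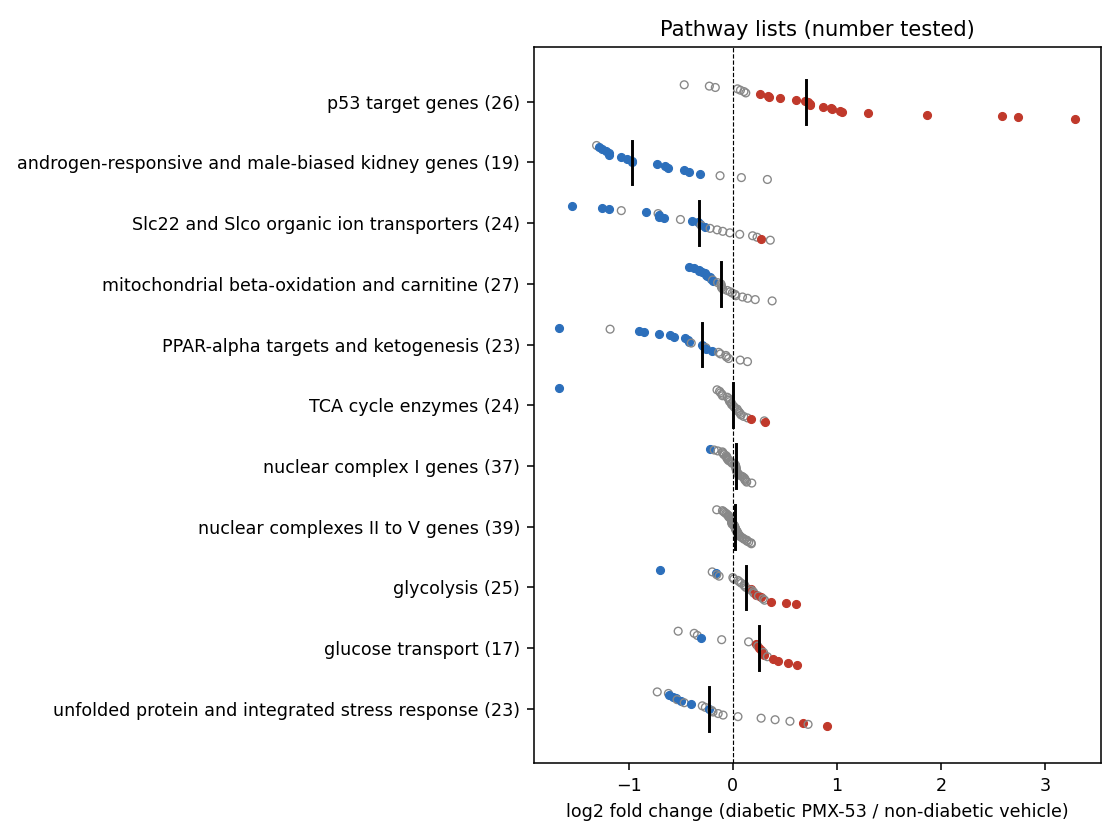
Log2 fold change of diabetic PMX-53 over non-diabetic vehicle cortex (x axis) for the tested members of 11 pathway lists, 1 point a gene. Filled red or blue points passed the threshold, open grey points did not, and black bars are medians, 0.71 for p53 targets and -0.97 for male-biased genes. The respiratory chain lists lie close to 0.

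In the glucose transport list, which also holds carriers of other substrates such as urate and inositol, 8 of 17 genes were higher and 1 lower (median 0.26). The count of higher genes was 5 without non-diabetic vehicle replicate 4. Slc2a2, which encodes GLUT2, the basolateral exit of glucose from the tubule, was at 225 to 305 CPM (median 256) against 188 to 218 CPM (median 199.6), with log2 fold change 0.39 ± 0.08 and adjusted p = 0.00221, with no overlap. Slc2a9, a urate transporter gene of the same family, was at 21.8 to 37.5 CPM (median 28.2) against 17.6 to 20.3 CPM (median 19.2), with log2 fold change 0.62 ± 0.12 and adjusted p = 0.00246. Slc2a12 was higher by 0.44 ± 0.10, Slc2a4, the insulin-responsive GLUT4 gene, by 0.53 ± 0.13 and Slc5a11, a sodium-coupled inositol transporter gene, by 0.26 ± 0.07. The luminal glucose cotransporters, named after inspection of the values, did not pass. Slc5a2 (SGLT2) was at 303 to 586 CPM (median 499.7) against 315 to 469 CPM (median 401), with log2 fold change 0.24 ± 0.14 and adjusted p = 0.281, and Slc5a1 (SGLT1) differed by -0.11 ± 0.19. In insulin and IGF signalling 3 of 22 were higher and 1 lower, against 8.08% and 7.52% of all genes. They included Igf2r, the receptor that clears IGF2, at 0.42 ± 0.06, the insulin receptor substrate gene Irs1 at 0.42 ± 0.08, and the binding protein gene Igfbp4 at -0.45 ± 0.11.

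Markers of the distal nephron were higher. All 7 markers of the distal convoluted and connecting tubule passed, against 8.08% higher among all genes, with a median of 0.90. S100g, which encodes the calcium-binding protein calbindin-D9k, was at 238 to 309.6 CPM (median 280.5) in diabetic PMX-53 and 119 to 155 CPM (median 138) in non-diabetic vehicle libraries (1.01 ± 0.08, adjusted p = 3.90e-07). Trpv5, the calcium entry channel gene, was at 18.7 to 30.1 CPM (median 27.1) against 11.4 to 16.9 CPM (median 14.02), with log2 fold change 0.90 ± 0.11 and adjusted p = 8.46e-05. Calb1, the calbindin-D28k gene, was at 307 to 425 CPM (median 381) against 133 to 289 CPM (median 153), with log2 fold change 1.11 ± 0.19 and adjusted p = 0.00191, and its highest reference value belonged to replicate 5. None of these 3 overlapped between groups. The marker Tmem52b was higher by 0.41 ± 0.06 and Slc12a3, the thiazide-sensitive sodium chloride cotransporter gene, by 0.36 ± 0.07. In the calcium, phosphate and vitamin D list, which also holds S100g, Trpv5 and Calb1, 7 of 22 were higher and 1 lower. It held the calcium pump gene Atp2b4 (0.85 ± 0.12), the sodium calcium exchanger gene Slc8a1 (0.73 ± 0.14) and Cyp27b1, the enzyme that makes active vitamin D and chosen after its values were seen (1.29 ± 0.31).

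In the collecting duct 7 of 9 principal cell markers were higher and 1 lower (median 0.49). Scnn1b, a subunit of the epithelial sodium channel, was at 31.1 to 44.8 CPM (median 38.6) against 19.5 to 26.3 CPM (median 22.7), with log2 fold change 0.76 ± 0.09 and adjusted p = 1.97e-05, and the subunit gene Scnn1g differed by 0.71 ± 0.10. Both were without overlap. The water channel gene Aqp3 was higher by 0.36 ± 0.08, Hsd11b2, which protects the mineralocorticoid receptor from glucocorticoids, by 0.45 ± 0.11, and the keratin gene Krt18 by 0.89 ± 0.21. Aqp2 and Aqp4, both water channel genes, were chosen after their values were seen. Aqp2 was at 48.7 to 93.6 CPM (median 61.4) against 21.4 to 50.1 CPM (median 35.7), with log2 fold change 0.86 ± 0.21 and adjusted p = 0.018, whereas Aqp4 was lower, at 1.77 to 10.4 CPM (median 8.71) against 11.7 to 24.7 CPM (median 19.4), with log2 fold change -1.45 ± 0.38 and adjusted p = 0.0269 (not called without non-diabetic vehicle replicate 2, adjusted p up to 0.0546). Of the acid-base handling intercalated cells 7 of 9 markers were higher and 0 lower (median 0.53). They included the proton pump subunit gene Atp6v0d2 (0.70 ± 0.09), the receptor gene Insrr (0.69 ± 0.13) and the exchanger genes Slc4a9 (0.52 ± 0.11), Slc26a4 (0.48 ± 0.11) and Slc4a1 (0.88 ± 0.22). At 2 of the 9 the higher group did not overlap the other, against 4.01% of all genes. Slc4a1 is also on the list of red blood cell markers, of which 1 of 8 was higher.

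Of 28 genes of sodium, chloride and bicarbonate transport 12 were higher and 0 lower, with a median of 0.18. Beside the genes above, Stk39, the kinase gene that activates the cotransporters, was higher by 0.44 ± 0.08. The thick ascending limb went the other way, with 2 of 7 markers lower and 0 higher (median -0.23). Cldn10, a paracellular channel gene, was at 52.5 to 63.8 CPM (median 59.2) against 70.99 to 80.7 CPM (median 78.7), with log2 fold change -0.40 ± 0.06 and adjusted p = 1.54e-04. Umod, the uromodulin gene, was at 772 to 1402 CPM (median 1269.6) against 1404 to 1777 CPM (median 1648), with log2 fold change -0.48 ± 0.13 and adjusted p = 0.0194, and Egf differed by -0.23 ± 0.09 and did not pass. Inner medulla markers summed to 696 to 871 CPM in diabetic PMX-53 and 644 to 915 CPM in non-diabetic vehicle libraries, with 1 of 6 higher, the claudin gene Cldn4 (0.69 ± 0.14). The 7 urothelium markers summed to 1.09 to 2.96 and 0.505 to 0.963 CPM, with 0 of 1 tested called. The part of tissue from outside the cortex in these differences was not tested.

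Podocyte markers were higher in 10 of 13 cases and lower in 0 (median 0.46), against 8.08% higher among all genes. At 8 markers the higher group did not overlap the other, against 4.01% of all genes. Nphs1, the nephrin gene of the slit diaphragm, was at 19.3 to 29.96 CPM (median 22.6) in diabetic PMX-53 and 13.2 to 17.5 CPM (median 16.02) in non-diabetic vehicle libraries, with log2 fold change 0.60 ± 0.12 and adjusted p = 0.00207. Cdkn1c, a cell cycle inhibitor gene of mature podocytes, was higher by 0.78 ± 0.16, the actin-binding protein gene Synpo by 0.45 ± 0.08 and Clic5 by 0.31 ± 0.06. The summed list was at 460 to 634 CPM against 364 to 474 CPM, so the groups overlapped in the sum. Of 10 markers of mesangium, pericytes and smooth muscle 3 were higher and 0 lower. They were the smooth muscle myosin gene Myh11 (1.18 ± 0.27), the pericyte gene Rgs5 (0.71 ± 0.16) and the transcription factor gene Gata3 (0.57 ± 0.10). Of 12 endothelial markers 1 was higher (Plvap, 0.27 ± 0.07) and 1 lower (Emcn, -0.25 ± 0.08), near the shares over all genes of 8.08% and 7.52%. Emcn was not called without non-diabetic vehicle replicate 2, 3, 4 or 5 or without diabetic PMX-53 replicate 1, 3, 4, 5 or 6, adjusted p up to 0.0938. Fibroblast markers passed in 0 of 7 cases. The plot of cell type markers shows these lists.

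**Figure D4:**
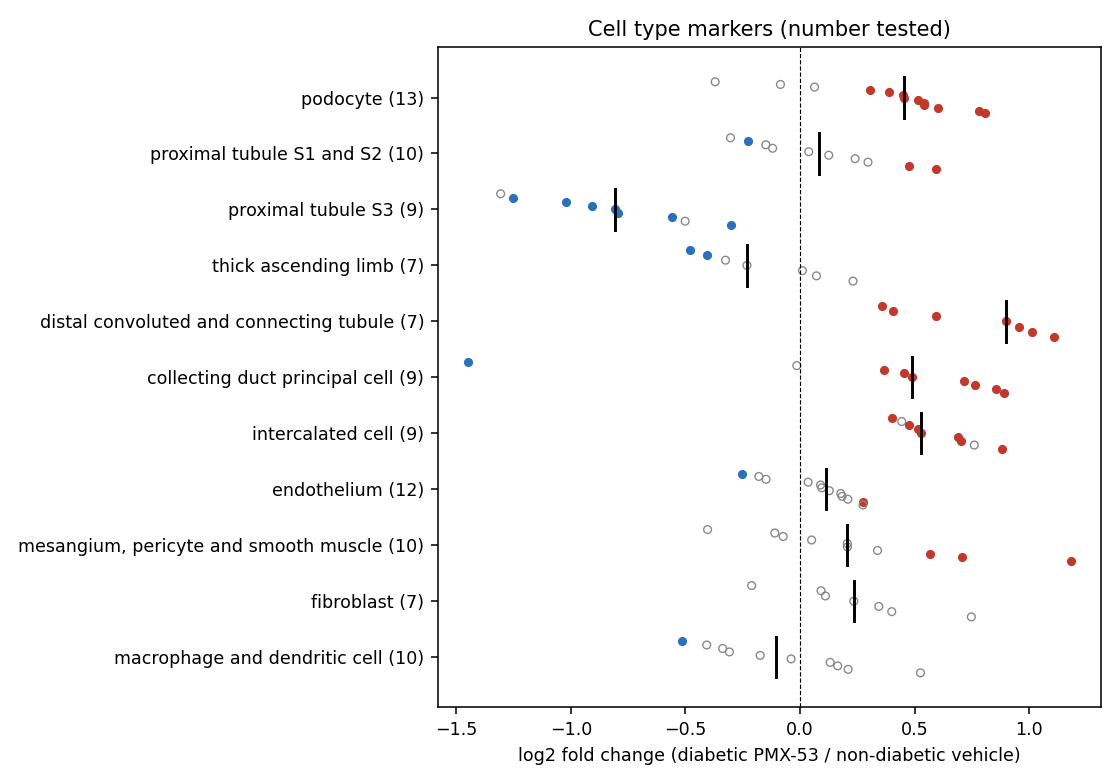
Log2 fold change of diabetic PMX-53 over non-diabetic vehicle cortex (x axis) for the tested markers of 11 cell types, 1 point a gene. Filled red or blue points passed the threshold, open grey points did not, and black bars are medians, which reach 0.90 in the distal convoluted and connecting tubule and -0.81 in S3.

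Of 52 genes of collagens, matrix and fibrosis 9 were higher and 8 lower, against 8.08% and 7.52% of all genes, and the latter count was 5 without non-diabetic vehicle replicate 1 or 2 or diabetic PMX-53 replicate 4. Col4a2, of the basement membrane collagen, was at 194 to 231 CPM (median 204) against 148 to 190.4 CPM (median 162), with log2 fold change 0.33 ± 0.07 and adjusted p = 0.00428, and the matrix protease gene Mmp2 was higher by 0.77 ± 0.16. Col27a1, a fibrillar collagen gene, was lower at -0.68 ± 0.12 and Smad7, an inhibitor of TGF-beta signalling, at -0.32 ± 0.07. Among laminins and basement membrane genes 5 of 20 were higher and 2 lower. Lama5, of the mature glomerular basement membrane, was at 217 to 259.8 CPM (median 226) against 177 to 200.2 CPM (median 192), with log2 fold change 0.30 ± 0.06 and adjusted p = 0.00162, with no overlap. Npnt was higher by 0.50 ± 0.09 and Nid2 by 0.38 ± 0.10, and the endothelial laminin gene Lama4 was lower at -0.67 ± 0.12.

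Tubular injury markers were called in 5 of 25 cases, 3 higher and 2 lower, near the 15.6% of all genes called. Without non-diabetic vehicle replicate 1 the count of higher markers was 5. Spp1, the osteopontin gene, was at 538 to 819 CPM (median 573) against 254 to 406 CPM (median 345), with log2 fold change 0.94 ± 0.14 and adjusted p = 3.85e-04, with no overlap, and the keratin gene Krt7 was higher by 0.45 ± 0.12 (not called without non-diabetic vehicle replicate 5, adjusted p up to 0.0516). Havcr1, which encodes the proximal injury marker KIM-1 and was chosen after its values were seen, was at 0.781 to 1.72 CPM (median 1.03) against 0.751 to 5.43 CPM (median 2.65). It did not pass (-1.22 ± 0.41, adjusted p = 0.0599). Macrophage and dendritic cell markers passed in 1 of 10 cases, against 15.6% of all genes, Csf1r, at 18.3 to 36.8 CPM (median 30.99) against 36.6 to 56.6 CPM (median 40.9), with log2 fold change -0.52 ± 0.15 and adjusted p = 0.041. It was not called without non-diabetic vehicle replicate 1, 2 or 5 or without diabetic PMX-53 replicate 3, 5 or 6, adjusted p up to 0.0778. The whole macrophage list summed to 57.9 to 93.9 CPM against 73.6 to 110 CPM. Markers of B and plasma cells summed to 44.2 to 135 CPM against 106 to 250 CPM with 0 of 6 called, and those of T and NK cells passed in 0 of 2 cases.

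The receptors and proteins that PMX-53 bears on were scarce. C5ar1 (ENSMUSG00000049130, chromosome 7, 16246743 to 16259540), the inhibitor's target, was at 0.409 to 1.77 CPM (median 1.04) in diabetic PMX-53 and 0.464 to 2.34 CPM (median 0.892) in non-diabetic vehicle libraries, from 5 to 38 counts each (-0.27 ± 0.38, adjusted p = 0.692). The groups overlapped. C5ar2, the other C5a receptor, had 65 counts over the 12 libraries and Hc, the gene of complement C5, had 13, and neither was tested. C3ar1, the C3a receptor gene, differed by -0.27 ± 0.28 (adjusted p = 0.565). C3, the hub of the cascade, was at 14.6 to 61.2 CPM (median 18.3) against 13.2 to 29.8 CPM (median 14.8) and did not pass (0.73 ± 0.42, adjusted p = 0.285). Of 15 genes of C3, the alternative and the terminal pathway 1 was higher and 3 were lower. C8a, a part of the membrane attack complex, was at 7.21 to 10.7 CPM (median 9.51) against 14.3 to 25.5 CPM (median 16.4), with log2 fold change -0.93 ± 0.15 and adjusted p = 5.79e-04. Cfb, of the alternative C3 convertase, was lower at -0.51 ± 0.09, the regulator gene Cd55 at -0.61 ± 0.12, and Cfi, which degrades C3b, was higher by 0.61 ± 0.13. Of 12 genes of the classical and lectin pathways 1 was higher and 1 lower, near the 8.08% and 7.52% of all genes. Masp1, a lectin pathway protease gene, was higher by 1.30 ± 0.22 at low levels, with means of 1.51 CPM in diabetic PMX-53 and 0.617 CPM in non-diabetic vehicle libraries. C4a was lower at -1.67 ± 0.43 (not called without diabetic PMX-53 replicate 1, adjusted p up to 0.0513). C4a has a near-identical copy, C4b, and its value is uncertain.

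Several chaperones of the endoplasmic reticulum were lower. In the list of the unfolded protein and integrated stress response 6 of 23 were lower and 2 higher (median -0.22). Pdia6, a protein disulphide isomerase gene, was at 72.1 to 85.4 CPM (median 79.3) against 93.8 to 120.4 CPM (median 103), with log2 fold change -0.40 ± 0.06 and adjusted p = 5.05e-04, with no overlap. Hsp90b1, the GRP94 chaperone gene, was at 226 to 309 CPM (median 247) against 303 to 424 CPM (median 356), with log2 fold change -0.50 ± 0.09 and adjusted p = 7.39e-04, and Pdia4 was lower at -0.54 ± 0.10. The 2 higher members belong to the amino acid arm. They were Asns, the asparagine synthetase gene (0.91 ± 0.22), and Aldh1l2, a mitochondrial folate enzyme gene (0.68 ± 0.16). A further 3 genes of the list were chosen after their values were seen. Calr, calreticulin, differed by -0.22 ± 0.07 (not called without non-diabetic vehicle replicate 1, 2, 4 or 6 or without diabetic PMX-53 replicate 1, 4, 5 or 6, adjusted p up to 0.0868), Hspa5, the BiP gene, had -0.62 ± 0.21 (adjusted p = 0.0778) and Creld2 had -0.72 ± 0.27 (adjusted p = 0.0942).

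Of these, 5 genes shared a promoter element. The ER stress response element (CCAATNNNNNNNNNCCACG, both strands) occurred in 5 of 23 promoters of 22 listed genes, with a pair of matches in that of Hsp90b1, and in 0.119% of all 32851 promoters of that length. It was chosen for search after the values were seen, and its matches overlapped 0 matches of the other motifs searched. The matches are in capitals with 20 bases on each side, read along the gene's own strand, and are shown because these 5 genes share the element.
Pdia6, chr12:17266471-17266529, plus strand: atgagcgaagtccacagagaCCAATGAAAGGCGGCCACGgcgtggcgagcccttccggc
Hsp90b1, chr10:86705618-86705676, minus strand: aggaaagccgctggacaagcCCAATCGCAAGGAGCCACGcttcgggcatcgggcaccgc
Hsp90b1, chr10:86705513-86705571, minus strand: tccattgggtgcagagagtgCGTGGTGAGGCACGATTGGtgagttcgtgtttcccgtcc
Calr, chr8:84847055-84847113, minus strand: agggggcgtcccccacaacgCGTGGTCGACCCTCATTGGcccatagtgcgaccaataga
Hspa5, chr2:34772005-34772063, plus strand: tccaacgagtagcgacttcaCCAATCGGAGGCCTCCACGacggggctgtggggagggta
Creld2, chr15:88819500-88819558, plus strand: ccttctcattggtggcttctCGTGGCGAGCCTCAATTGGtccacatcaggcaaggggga
Positions are on GRCm38.p6 from RefSeq. Of the 5 genes 3 were lower in diabetic PMX-53 cortex and 2 did not pass.

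Clock genes, which cycle over the day in the kidney, differed in 7 of 20 cases, 2 higher and 5 lower. Rora, a nuclear receptor gene of the clock's second loop, was at 76.2 to 107 CPM (median 95.5) against 121 to 159 CPM (median 129), with log2 fold change -0.51 ± 0.08 and adjusted p = 2.37e-04. Nr1d1, the opposing repressor REV-ERB alpha, was higher, at 80.9 to 115 CPM (median 91.5) against 39.3 to 61.8 CPM (median 53.6), with log2 fold change 0.87 ± 0.12 and adjusted p = 2.70e-04. Neither gene overlapped between groups. The repressor genes Bhlhe40 and Bhlhe41 went opposite ways, at -0.74 ± 0.13 and 0.61 ± 0.12. A further 3 members were chosen after their values were seen. Cry1, a core repressor gene, was lower at -1.37 ± 0.29, while the activator genes Arntl (0.51 ± 0.53, adjusted p = 0.58) and Npas2 (1.01 ± 0.45, adjusted p = 0.164) did not pass. Their levels spread widely within both groups, with Arntl from 3.11 to 16.9 CPM among diabetic PMX-53 libraries. The part of the time of collection in these differences was not tested. The E-box (CACGTG, both strands), through which the core activators bind, occurred in 6 of 22 promoters of 17 listed genes and in 7.15% of all promoters. These belonged to Bhlhe41, Ciart, Cry1, Per1 and Tef. In non-diabetic PMX-53 mice Rora averaged 115 ± 8.59 and Cry1 2.69 ± 1.12 CPM (SD, n = 6).

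**Figure D5:**
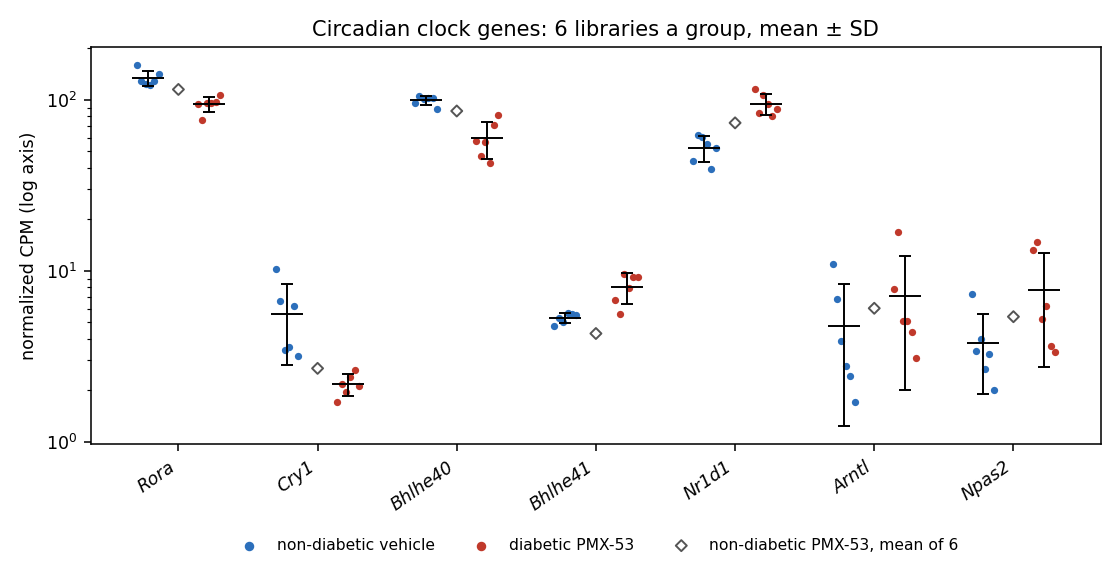
Normalized CPM (log axis) of 7 clock genes in each of 6 non-diabetic vehicle (blue) and 6 diabetic PMX-53 libraries (red), with mean ± SD in black and the mean of 6 non-diabetic PMX-53 libraries as open diamonds. The diamonds were scaled in a separate fit of 18 libraries. Rora, Cry1 and Bhlhe40 lie lower and Nr1d1 higher without overlap, whereas Arntl and Npas2 overlap widely.

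Most called genes of the list of tryptophan breakdown and NAD synthesis were lower. Of 15 genes 7 were lower and 1 was higher (median -0.23), and 4 were lower when all 24 libraries shared the fit. The exception was Kynu, the kynureninase gene, at 17.7 to 31.6 CPM (median 20.2) against 3.93 to 9.91 CPM (median 7.68), with log2 fold change 1.59 ± 0.22 and adjusted p = 4.36e-04, with no overlap. Aadat, which converts kynurenine to kynurenic acid, was at 88.5 to 123 CPM (median 101) against 158 to 213 CPM (median 178), with log2 fold change -0.81 ± 0.08 and adjusted p = 9.32e-06, also with no overlap. The formamidase gene Afmid was lower at -0.66 ± 0.16, the dioxygenase gene Haao at -0.40 ± 0.10 and Aspdh at -0.62 ± 0.12, with overlapping groups.

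Redox genes moved both ways. Of 22 targets of Nrf2, the regulator of antioxidant enzymes, 6 were higher and 3 lower. The glutathione transferase gene Gsta2 was at 79.7 to 147 CPM (median 91.9) against 27.7 to 66.8 CPM (median 40.1), with log2 fold change 1.25 ± 0.24 and adjusted p = 0.00602, and its relative Gsta3 was higher by 0.35 ± 0.06. A pair of pentose phosphate pathway genes were higher, Tkt by 0.38 ± 0.07 and Pgd by 0.31 ± 0.05, while Me1, the malic enzyme gene, was lower at -0.60 ± 0.07. Of 21 superoxide, peroxide and NADPH oxidase genes 3 were lower and 0 higher, with the cytosolic superoxide dismutase gene Sod1 at 169.7 to 212 CPM (median 186) against 234 to 270.0 CPM (median 252), with log2 fold change -0.43 ± 0.06 and adjusted p = 1.21e-04. The others were the thioredoxin gene Txn1 (-0.17 ± 0.05, not called without non-diabetic vehicle replicate 6, adjusted p up to 0.0516) and the oxidase subunit gene Ncf4 (-0.94 ± 0.26, not called without non-diabetic vehicle replicate 2 or 4 or without diabetic PMX-53 replicate 5, adjusted p up to 0.0557).

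In lipid synthesis, 2 of 24 cholesterol synthesis genes were higher, near the 8.08% of all genes, and 4 lower, against 7.52%. Hmgcs1, an early enzyme of the pathway, was at 317 to 410.3 CPM (median 378) against 421 to 506 CPM (median 485), with log2 fold change -0.34 ± 0.07 and adjusted p = 0.00322, with no overlap. Ebp, a late isomerase gene, was lower at -0.41 ± 0.09, whereas the squalene synthase gene Fdft1 was higher by 0.32 ± 0.08. Of 20 fatty acid synthesis genes 3 were higher and 5 lower, the latter being 2 without scaling beyond library totals and 3 when all 24 libraries shared the fit. Acacb, the mitochondrial acetyl-CoA carboxylase gene whose product inhibits fatty acid entry, was at 54.2 to 74.8 CPM (median 58.99) against 33.2 to 47.3 CPM (median 40.9), with log2 fold change 0.64 ± 0.10 and adjusted p = 3.55e-04. The desaturase gene Fads2 was lower at -0.35 ± 0.07.

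The renin-angiotensin list gave 3 of 12 higher and 3 lower. Ace (ENSMUSG00000020681, chromosome 11, 105967945 to 105989964), the angiotensin-converting enzyme gene, was at 81.7 to 125 CPM (median 103) against 229.7 to 274 CPM (median 235), with log2 fold change -1.28 ± 0.10 and adjusted p = 9.62e-07, without overlap. The peptidase gene Mme was lower at -0.49 ± 0.13. Mas1, the receptor of angiotensin 1-7, was higher by 1.10 ± 0.27 at low levels, the aminopeptidase gene Enpep by 0.20 ± 0.05 and the carboxypeptidase gene Ctsa by 0.26 ± 0.06. Of 21 amino acid transporters 5 were higher and 4 lower, led by Slc43a2, a neutral amino acid transporter gene, at 254 to 428 CPM (median 377) against 182 to 214 CPM (median 191), with log2 fold change 0.89 ± 0.10 and adjusted p = 2.84e-05.

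Values of non-diabetic PMX-53 mice were set beside these in a fit of 18 libraries. Diabetic PMX-53 and non-diabetic PMX-53 cortex differed at 1902 of 15514 genes (12.3%), 1007 higher (6.49%) and 895 lower (5.77%). Non-diabetic PMX-53 and non-diabetic vehicle cortex differed at 0 of 15514 by edgeR, with 1315 at an unadjusted p below 0.05 and 26 calls by DESeq2. The comparisons share libraries with the main one, so their values are given side by side only. The p53 list had a median of 0.65 between the diabetic and non-diabetic PMX-53 groups and 0.00 between the non-diabetic groups. The male-biased list had -0.85 and -0.04. Against non-diabetic PMX-53, 5 of 7 distal convoluted and connecting tubule markers were higher, 4 of 13 podocyte, 2 of 9 principal cell and 1 of 9 intercalated cell markers, against 6.49% of all genes, and 0 of each differed between the non-diabetic groups. For distal convoluted and connecting tubule markers the medians were 0.67 and 0.28, for podocyte markers 0.18 and 0.23, for principal cells 0.28 and 0.25, for intercalated cells 0.34 and 0.23, and for PPAR-alpha targets -0.05 and -0.24. Against non-diabetic PMX-53, 5 of 23 PPAR-alpha targets were lower and 0 higher, against 5.77% and 6.49% of all genes. Of 27 mitochondrial beta-oxidation and carnitine genes 5 were lower and 2 higher, and the medians of that list were -0.04 and -0.09. Levels of the non-diabetic PMX-53 group were scaled in the 18-library fit, and those of the other groups in the 12-library fit. Non-diabetic PMX-53 libraries held Fmo5 at 122 ± 8.81 CPM and Kap at 9206 ± 902 CPM, beside the vehicle means of 129 ± 11.4 and 10006 ± 868 CPM. Their Ehhadh level of 506 ± 105 CPM lay between 444 ± 32.6 and 675 ± 131 CPM, and neither comparison with the non-diabetic PMX-53 group passed for Ehhadh (adjusted p = 0.371 and 0.364).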

How the data were processed

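RNA of mouse renal cortex was sequenced after ribosomal RNA depletion with a directional kit, per the labels' protocols. The authors deposited a table of raw counts per gene. The submitters' processing notes name bcl2fastq 2.20.0.422, STAR and GRCm38. Neither the counting tool nor the annotation nor the strand rule is given in the sources used here, and positions are those of the matching GENCODE M21 annotation. Groups came from the sample labels.

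Counts of 12 libraries were filtered (filterByExpr, minimum count 10), scaled by TMM and tested with edgeR 4.0.16 (robust quasi-likelihood, R 4.3.3), with Benjamini-Hochberg adjustment over 15150 genes and a threshold of 0.05. An 18-library fit gave the side-by-side comparisons and the scaled levels of non-diabetic PMX-53 libraries. Alternatives used DESeq2 1.42.0 and limma 3.58.1, other scalings and filters, a replicate block and each library left out. Single library properties were compared by two-sided exact permutation tests, whose smallest p is 0.00216. In simulated data for the main comparison (15150 genes, 200 changed) 96.0% of 2-fold and 83.0% of 1.5-fold changes were recovered, with 2.72% false calls. All 30 replicate pairs differed beyond sampling noise.

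Named genes are the 12 largest changes each way among calls with average log2 CPM of at least 1, the 6 smallest p each way, up to 5 smallest p of each list, and C5ar1, C5ar2, Hc, C3 and C3ar1. Others are said to be chosen after their values were seen. Members and lists were chosen with earlier results of these data known. Some genes are not reported here.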

Additional observations from a re-analysis of the deposited data

Results flagged for a closer look

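Within the groups of 6, a library far from its 5 neighbours was found for 35 pairs of a named gene and a group, among 430 tested, and chance alone gives about 1 in 20. Values are CPM in that library, followed by the range of the other 5.

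Non-diabetic vehicle replicate 5 held 16 of these. It was above the others at Acadl (269, others 199 to 219), Acadm (595, 416 to 436), Ehhadh (933, 563 to 650), Pdk4 (255, 41.8 to 104), Calb1 (289, 133 to 176), Mme (165, 108 to 124), Pgd (73.2, 65.4 to 67.0), Slc22a26 (25.8, 8.68 to 14.4), Slc5a1 (84.1, 50.7 to 59.1) and Ifit2 (11.4, 8.16 to 9.11). It was below them at Afmid (12.7, 22.5 to 25.2), Aldh1l2 (1.40, 1.97 to 2.25), Anxa13 (2.65, 7.43 to 8.08), Aspdh (39.0, 57.1 to 59.5), Fads2 (61.6, 76.0 to 79.4) and Rps2 (144, 155 to 161).

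Other reference libraries stood out singly. Replicate 1 was high at Cdkn1a (5.66, others 2.37 to 3.31) and Serpina1a (19.8, 7.66 to 11.6), and replicate 4 at C3 (29.8, 13.2 to 19.4), C3ar1 (6.23, 1.77 to 3.00) and Slc25a42 (242, 186 to 204). Replicate 3 was high at Slc6a19 (420, 329 to 340) and low at Ier3 (9.68, 15.1 to 18), and replicate 6 was low at Sult1a1 (5.19, 6.88 to 7.73).

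Among diabetic PMX-53 libraries, replicate 1 was high at Krt18 (16, others 9.72 to 11.8). Replicate 2 was high at Aqp2 (93.6, 48.7 to 62.5), Arntl (16.9, 3.11 to 7.83) and Nid2 (32.1, 23.6 to 26.6) and low at Ppargc1a (94.8, 111 to 118). Replicate 3 was high at Acadm (395, 321 to 341). Replicate 4 was high at Igf2r (461, 364 to 385) and low at Csf1r (18.3, 30.2 to 36.8). Replicate 6 was low at Tmlhe (13.3, 15.5 to 15.8), Car12 (176, 248 to 278) and Txn1 (96.6, 106 to 110).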

How the results depend on the processing

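The 2364 calls became 2354 with RLE scaling, 2193 without a filter, 2328 with a mean CPM of at least 1, 2584 by DESeq2, 2617 by limma voom with quality weights, 2363 when all 24 libraries shared the fit, 2725 with 18 libraries and 2358 without mitochondrially encoded and ribosomal RNA genes. They became 1562 without scaling beyond library totals and 76 against a 1.5-fold threshold, which by construction asks for larger differences. Leaving out 1 library gave 1910 to 2311. The 1902 calls against non-diabetic PMX-53 became 1111 without scaling, 2123 by DESeq2 and 2009 in a fit of only the 12 libraries compared. The 0 calls between the non-diabetic groups became 26 by DESeq2 and stayed at 0 in the other fits run. The cause of the changes without scaling was not tested.

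Same-numbered libraries did not deviate together (correlations -0.138 to 0.0468 over 6 pairs, 0 of 6 best with its own number). With the replicate number as a block the counts were 2047, 1786 and 0. The share of mitochondrially encoded genes differed by 2.60 to 3.96 percentage points when 1 library was left out, with the exact p above 0.05 without diabetic PMX-53 replicate 1 or 3 or non-diabetic vehicle replicate 5 or 6. The difference in genes detected at equal depth was 196 to 348, with the exact p below 0.05 only without non-diabetic vehicle replicate 5. Of the genes named in the text, Ldha aside, 190 were called, 145 of these in every setting run and 45 not, and 0 reversed direction. Calls were lost at 17 named genes when all 24 libraries shared the fit and at 16 without scaling beyond library totals. With the replicate block 13 were lost, without a filter 10, with 18 libraries 4 and by limma 2. Losses of this kind are mostly not marked beside the genes. Depth limited genes such as C5ar2 and Hc, which had too few counts to test.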

Other observations

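Several groups not described above differed in few members, most of them at shares near those over all genes (8.08% higher and 7.52% lower). Interferon response genes were higher in 3 of 28 cases, near the 8.08% of all genes, and lower in 0, with Ddx58, the RIG-I sensor gene, at 0.34 ± 0.06 (log2 fold change ± SE, adjusted p = 5.21e-04 by edgeR), Ifi27 at 0.33 ± 0.07 and Ifit2 at 0.52 ± 0.12. Of 20 genes of antigen presentation 4 were higher and 1 lower, a higher count that was 2 without non-diabetic vehicle replicate 2 or diabetic PMX-53 replicate 1. H2-DMb1, which helps load class II molecules, was at 7.01 to 9.90 CPM (median 8.56) in diabetic PMX-53 and 5.54 to 7.43 CPM (median 5.76) in non-diabetic vehicle libraries (0.48 ± 0.10). The peptide transporter gene Tap1 was higher at 0.50 ± 0.14 (not called without non-diabetic vehicle replicate 1, 2 or 4 or without diabetic PMX-53 replicate 1, adjusted p up to 0.062), and the class II gene H2-Ab1 was lower at -0.18 ± 0.06 (not called without non-diabetic vehicle replicate 1, 2, 3 or 5 or without diabetic PMX-53 replicate 1, 2, 3, 4, 5 or 6, adjusted p up to 0.112). Of 23 cell cycle and DNA replication genes 3 were higher and 0 lower. Ccnd1, the cyclin D1 gene, was at 226 to 333 CPM (median 249) against 106 to 193 CPM (median 135), with no overlap (0.91 ± 0.14, adjusted p = 9.05e-04), the S phase regulator gene E2f1 differed by 0.64 ± 0.18 (not called without non-diabetic vehicle replicate 4 or 6 or without diabetic PMX-53 replicate 5, adjusted p up to 0.0591), and the cell cycle inhibitor gene Cdkn1c, described with the podocyte markers, was also higher.

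Of 8 carbonic anhydrase genes 2 were higher and 1 lower. Car4, the membrane-bound enzyme of the proximal tubule, was at 60.2 to 93.7 CPM (median 80.7) against 111 to 165 CPM (median 137), with no overlap (-0.78 ± 0.11, adjusted p = 2.78e-04), whereas Car12 differed by 0.40 ± 0.10 and Car8 by 0.53 ± 0.16 (not called without non-diabetic vehicle replicate 1, 2 or 4 or without diabetic PMX-53 replicate 1, 5 or 6, adjusted p up to 0.0804). Of 14 UDP-glycosyltransferase genes 1 was higher, Ugt1a10, and 2 were lower, Ugt3a2 at -0.54 ± 0.06 and Ugt8a. Neither lower gene belongs to the Ugt1a or Ugt2b glucuronosyltransferases. Of 18 glucocorticoid-responsive genes 2 were higher and 2 lower. Ddit4, a brake on mTOR signalling, was at 8.59 to 15.7 CPM (median 8.96) against 4.79 to 8.31 CPM (median 6.72) (0.63 ± 0.17, adjusted p = 0.019), and the sulphotransferase gene Sult1a1 differed by 0.35 ± 0.11 (not called without non-diabetic vehicle replicate 2 or 6 or without diabetic PMX-53 replicate 1, 5 or 6, adjusted p up to 0.089). Of 17 immediate early genes Btg2, also a p53 target, was higher at 0.46 ± 0.10 and Ier3 lower at -0.54 ± 0.15 (not called without non-diabetic vehicle replicate 1, 2, 5 or 6 or without diabetic PMX-53 replicate 1, 3 or 4, adjusted p up to 0.0602). Ribosomal protein genes were called in 3 of 45 cases, below the 8.08% of all genes, all higher and small, with Rps2 at 0.27 ± 0.05, Rplp0 at 0.20 ± 0.06 and Rplp1 at 0.19 ± 0.06. Rplp0 was not called without non-diabetic vehicle replicate 3, 4, 5 or 6 or without diabetic PMX-53 replicate 1, 3 or 4, adjusted p up to 0.0809. Rplp1 was not called without non-diabetic vehicle replicate 3, 5 or 6 or without diabetic PMX-53 replicate 1, 3, 4 or 6, adjusted p up to 0.0942. Of 13 genes of cardiolipin synthesis 0 passed.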
